A study of Drosophila melanogaster with 4 samples.

Results

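The regions described here are the H4K16ac-enriched clusters on 3R, the right arm of chromosome 3 of Drosophila melanogaster. They are all regions that the authors placed on this arm and named as enriched: 887 of the 4051 clusters of ChIP replicate 1 (21.9%), 957 of the 4431 of replicate 2 (21.6%), and 1204 of the 5728 of the list that combines both replicates (21.0%). Position and name alone chose them, so no value of width or score entered the choice. Chromatin came from head nuclei of mixed adult Oregon-R flies, a wild-type strain, with sex not stated. Chromatin immunoprecipitation and sequencing gave 2 ChIP libraries, each with an input library of the same number as its control, and no other genotype, treatment or age was sampled. The files hold region lists for the ChIP group alone, so no group of samples could be set against another, and every statement below is a description of values in each replicate list. Whether the replicates came from separate collections of flies is not stated, and their spread may reflect technical variation alone.

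In H4K16ac a lysine of the histone H4 tail carries an acetyl group, which removes a positive charge and is known to loosen the packing of nucleosomes. In flies the enzyme MOF places it. As part of the MSL complex MOF acetylates the X of males, and as part of the NSL complex it is known to act at the starts of active genes on all chromosomes. On an autosome arm such as 3R the mark is therefore known mainly from short stretches near active genes. The arm is also known to carry the Antennapedia and bithorax complexes of homeotic genes, which Polycomb proteins keep silent in large parts of the body. The region lists name no genes and the gene table used here is on release 6 of the genome, whereas the lists are on release 5, so no gene was placed in a cluster or between clusters and no sequence is shown.

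The clusters of 3R were short, numerous and found along the whole arm. There were 31.8 clusters per Mb in replicate 1 and 34.3 in replicate 2 (mean 33.0 ± 1.77, SD, n = 2). Together the clusters took up 7.62% of the 27905053 bp of the arm in replicate 1 and 8.83% in replicate 2 (mean 8.22% ± 0.853, n = 2). In Mb this was 2.13 and 2.46, respectively. In windows of 100 kb, 212 of 279 held cluster sequence in both replicates, 18 in 1 replicate and 49 (17.6%) in neither. The longest run of such windows with cluster sequence in both replicates went from 13200001 to 14600000, over 1.4 Mb. Windows without cluster sequence in either replicate followed each other at most 3 at a time.

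Density in bins of 1 Mb varied from 17.5 to 65.0 clusters per Mb, as means of both replicates, a ratio of 3.71. The densest bin lay between 5 and 6 Mb, with 61 clusters in replicate 1 and 69 in replicate 2, and clusters covered 16.6% ± 1.30 of it (SD, n = 2). Next came the bin between 1 and 2 Mb, with 50 and 53 clusters, and the bin between 7 and 8 Mb, with 47 and 44. All 3 lay in the part of the arm nearest the centromere, since coordinates of 3R run outward from it. The fewest clusters were counted between 22 and 23 Mb, with 15 in replicate 1 and 20 in replicate 2, and between 26 and 27 Mb, with 17 and 18. The bin between 15 and 16 Mb held 19 in each replicate. These sparse bins were covered to 3.85%, 3.85% and 4.70%, respectively. Only the 2 densest bins reached 1.5 times the mean of 33.1 over the 28 bins, and 0 bins were at or below 0.5 times the mean.

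**Figure D1:**
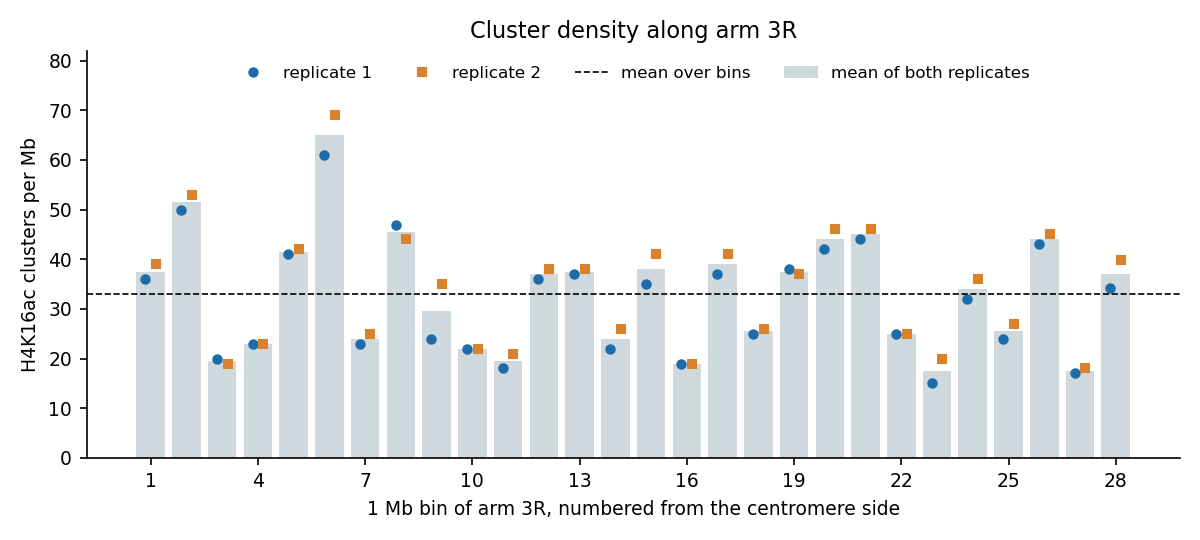
H4K16ac clusters per Mb in 28 consecutive bins of 1 Mb along arm 3R (the last bin is 0.905 Mb long and its counts are scaled), numbered from the centromere side; bars give the mean of both replicates, circles replicate 1 and squares replicate 2, and the dashed line the mean over bins. The densest bin reaches 65.0 clusters per Mb and the other bins 17.5 to 51.5, and the points of both replicates lie close together in most bins.

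Some dense bins stood beside sparse ones and others beside bins of similar density. The bin between 2 and 3 Mb, beside the second densest, held 20 and 19 clusters. The bin between 6 and 7 Mb, which separates the densest from the bin between 7 and 8 Mb, held 23 and 25. By contrast, the bins between 19 and 20 and between 20 and 21 Mb were both dense, with 42 and 44 clusters in replicate 1 and 46 each in replicate 2. Across bins, the density of a bin and that of its outer neighbour had a Spearman's rho of -0.16. The 7 densest bins held 36.5% of all clusters of both replicates and the 7 sparsest 15.0%. Both replicates drew the same profile: counts per bin correlated with a Pearson's r of 0.972 and a Spearman's rho of 0.962 over 28 bins, which share the sequence of the arm. Replicate 2 held more clusters in 21 bins, replicate 1 in 3, and 4 were equal. The largest difference was 11 clusters, between 8 and 9 Mb, where replicate 1 held 24 and replicate 2 held 35.

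In denser bins the single clusters were not clearly wider or higher in score. Covered share followed the number of clusters (rho 0.977 over 28 bins). The median width of a bin's clusters had a rho of 0.444 with density, but a Pearson's r of 0.233, and the median score had a rho of 0.199. The bin with the highest median score, 0.720 as mean of both replicates, lay between 25 and 26 Mb and held 43 and 45 clusters. Its neighbour between 24 and 25 Mb held 24 and 27 clusters, the widest of any bin by their medians of 2932 and 2742 bp. The lowest median score, 0.451, was that of the bin between 13 and 14 Mb. The score is the authors' own value for each region. Its scale is not stated in the sources used here, so a difference in score between lists is not read as a change in the mark.

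From centromere to telomere there was no steady gradient. The arm was divided into an inner, a middle and an outer segment of equal length, 9.30 Mb each. The inner segment held 35.7 clusters per Mb in replicate 1 and 38.2 in replicate 2 (mean 36.9 ± 1.75, n = 2). The middle segment held 30.7 ± 1.44 and the outer segment 31.5 ± 2.13. The inner segment was thus the densest in each replicate, while the ratio of outer to middle density was 1.01 in replicate 1 and 1.04 in replicate 2. The ratio of outer to inner density was 0.840 in replicate 1 and 0.865 in replicate 2. Much of this ratio came from the bin between 5 and 6 Mb: without that bin, which was left out only once the values had been seen, the ratio was 0.938 ± 0.0277. Over all bins, density and distance from the centromere side had a rho of -0.13 in replicate 1 and -0.12 in replicate 2. Width and score hardly differed along the arm. The median width was 2103 ± 76.4 bp in the inner, 2074 ± 48.1 bp in the middle and 2116 ± 58.7 bp in the outer segment, and the median scores were 0.565 ± 0.0200, 0.549 ± 0.0022 and 0.574 ± 0.0143.

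Clusters were called close to either end of the assembled arm, but sparsely at the telomere side. The first Mb held 36 clusters in replicate 1 and 39 in replicate 2, and the last Mb 31 and 36, all near the mean of the arm. At the centromere side, the first cluster seen in both replicates ran from 45960 to 48209 in replicate 1, with a score of 0.847, and from 45929 to 48335 in replicate 2, with a score of 0.915. A further cluster, only 762 bp from the start of the sequence, was called in replicate 1 (score 0.443) and in the combined list, but not in replicate 2. At the telomere side, the last cluster ended 10.7 kb before the end of the sequence in replicate 1 and 10.5 kb before it in replicate 2. Its scores of 0.436 and 0.407 were below the median of each list. Inward of the last but one cluster, a stretch of 225 kb with its middle at 99.5% of the arm held no cluster in either replicate.

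The arms 2L and 3L, the most similar in size, ran the other way. On 2L the inner segment held 21.2 ± 1.20 clusters per Mb and the outer 33.4 ± 2.86, a ratio of 1.58 ± 0.0457 (SD, n = 2). On 3L the ratio was 1.26 ± 0.0106, with 26.2 ± 2.42 in the inner and 32.9 ± 2.77 in the outer segment. The outer segment of 3R, at 31.5 ± 2.13, was below those of 2L and 3L in each replicate. The SDs include the higher counts of replicate 2 on every arm, so they do not measure a difference between arms. The inner segment of 3R, at 36.9 ± 1.75, was above those of 2L and 3L in each replicate. No bin of 3R held fewer than 17.5 clusters as the mean of both replicates, whereas the emptiest bins held 5.5 on 2L and 7.0 on 3L. The coefficient of variation of density over bins was 0.359 ± 0.0041 on 3R, 0.503 ± 0.0055 on 2L and 0.448 ± 0.0111 on 3L. It includes the short last bin of each arm at full weight, scaled by its length, whereas the emptiest bins were taken from whole bins. On 2L, 23011544 bp long, that last bin is very short and can move the coefficient. The differences between arms were not tested, and the share of each arm that lies in heterochromatin was not measured.

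Gaps between neighbouring clusters covered a wide and skewed range. The median gap between neighbours was 7266 bp in the first list and 6820 bp in the second, whereas the mean gaps were 29083 and 26554 bp. The lower quartile was 2027 bp in each list, and the upper quartile 26391 and 24442 bp. Gaps under 2 kb made up 24.6% and 24.8% of all gaps, and those under 10 kb 56.5% and 58.1%. At the other extreme, 145 gaps of replicate 1 and 143 of replicate 2 measured 50 kb or more and took up 66.2% and 62.8% of the arm. The standard deviation of the gaps was 1.88 and 1.91 times their mean. On 2L this figure was 2.08 ± 0.0609 and on 3L 1.93 ± 0.0870, and their median gaps were 7476 ± 833 and 8544 ± 1019 bp. By replicate the median gap of 2L was 8065 and 6887 bp, above that of 3R in each, though only slightly in replicate 2. In the combined list the order was reversed, with 4877.5 bp on 2L and 5415 bp on 3R.

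**Figure D2:**
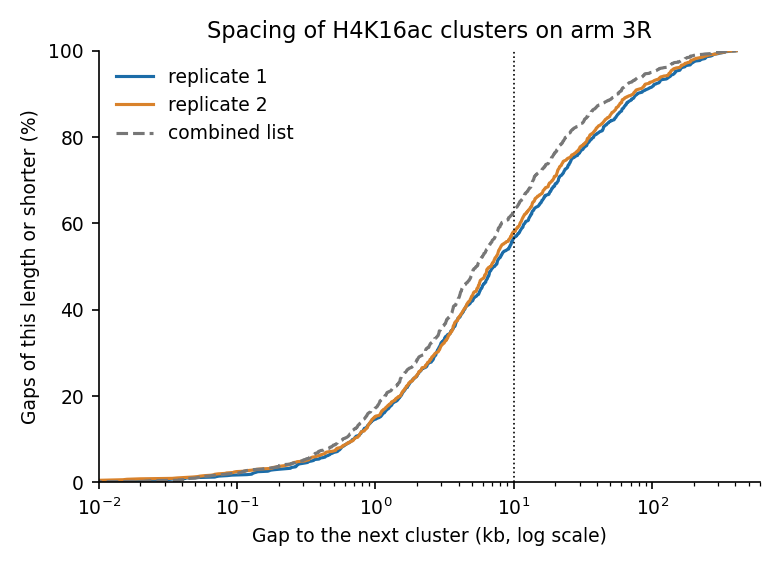
Share of gaps between neighbouring 3R clusters that are of a given length or shorter, in percent, against gap length in kb on a log scale; solid lines are the replicates, the dashed line the combined list, and the dotted line marks 10 kb. The replicate curves nearly coincide and cross the dotted line at 56.5% and 58.1%, and the combined list lies above them at 62.9%.

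Linking clusters less than 10 kb apart gave 118 groups of 3 or more clusters in replicate 1 and 124 in replicate 2, with 60.7% and 60.9% of the clusters. Their median span was 17.8 and 19.3 kb. They occupied 9.56% and 10.8% of the arm and held 62.4% and 63.6% of the covered length. Clusters without a neighbour within 10 kb numbered 187 and 182, or 21.1% and 19.0%. Groups of 10 or more clusters were few, 6 in replicate 1 and 7 in replicate 2. On 2L 60.7% ± 5.40 and on 3L 54.7% ± 4.04 of the clusters were in groups of 3 or more. By replicate the share on 2L was 56.9% and 64.6%, below that of 3R in replicate 1 and above it in replicate 2. On 3L it was 51.8% and 57.5%, below that of 3R in each.

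The largest group of the combined list, with 16 clusters, ran from 5550211 to 5635369 in the densest bin and spanned 85.2 kb. Replicate 1 held 11 clusters there, with scores from 0.273 to 1.02, and replicate 2 held 13, with scores from 0.316 to 1.02. Another 14 combined clusters lay from 12031766 to 12111267, where replicate 1 had 12 clusters and replicate 2 had 10. The group from 1559178 to 1633182 also had 14 in the combined list, but only 6 and 7 in the replicates, which broke it into 4 and 3 groups. From 8226323 to 8291844 the lists were nearly identical, with 12 and 13 clusters in the replicates and 13 in combination, covering 48.0% and 56.7% of the 65.5 kb in the replicates. The fifth group, from 13989532 to 14053506, held 13 combined clusters against 9 and 10.

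Within the replicate lists, the largest group of replicate 1 was a different one. Its 13 clusters ran from 11144529 to 11201613, where replicate 2 held 11, and it lay mostly in the densest window of 100 kb, from 11100001 to 11200000. That window held 15 clusters in replicate 1 and 14 in replicate 2 and was covered to 41.2% and 43.2%. Such a stretch stood within a bin that was near the mean of the arm, with 36 and 38 clusters, so its density was local. Beyond it, from 11313099 to 11611588, lay 298 kb without a cluster in either replicate.

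Membership in a group went with only small differences in the clusters themselves. Clusters in groups of 3 or more had a median width of 2149 ± 78.8 bp and a median score of 0.577 ± 0.0193, and 90.1% ± 6.38 of them overlapped the other replicate (SD, n = 2). Clusters at least 20 kb from both neighbours, 107 in replicate 1 and 108 in replicate 2, had a median width of 2040 ± 34.6 bp, a median score of 0.556 ± 0.0261 and an overlap of 85.1% ± 5.16. In each replicate the isolated clusters had the lower value in all 3 measures. Overlap was 94.6% in groups against 88.8% isolated in replicate 1, and 85.6% against 81.5% in replicate 2. Median scores were 0.563 against 0.537 in replicate 1 and 0.591 against 0.574 in replicate 2. These differences were not tested. The scores of neighbouring clusters were nearly unrelated, with a rho of 0.0392 over 886 pairs of replicate 1 and 0.0842 over 956 of replicate 2.

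Empty territories made up a large part of the arm. Stretches of 100 kb or more without a cluster in either replicate numbered 68 and added up to 12.1 Mb, or 43.2% of 3R, with a median length of 160 kb. By the same measure 2L had 60 such stretches over 55.3% of the arm and 3L had 62 over 48.0%. They lay in all parts of 3R: 20 had their middle in the inner, 23 in the middle and 25 in the outer segment. The combined list placed 45 whole clusters in 29 of the 68.

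**Figure D3:**
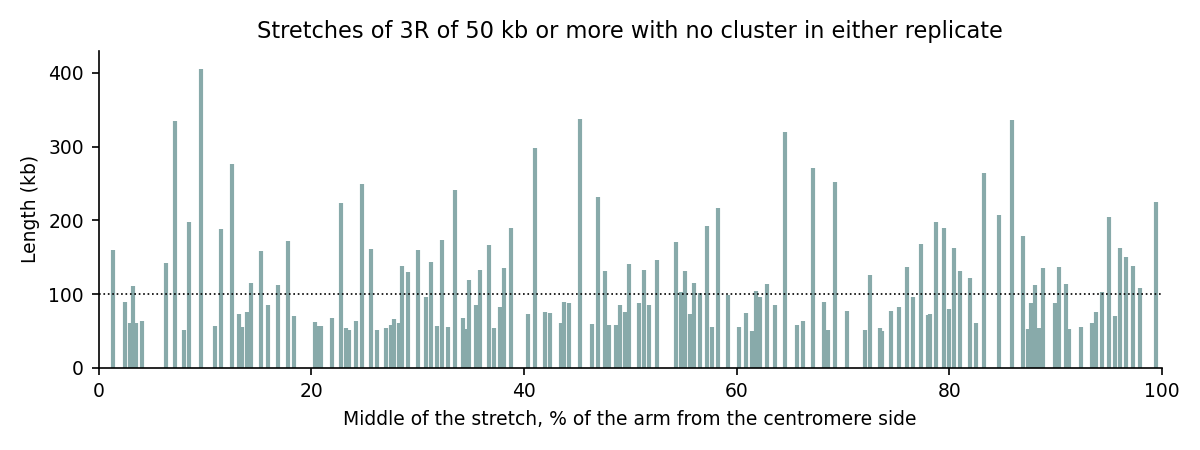
Stretches of arm 3R of 50 kb or more without a cluster in either replicate, each drawn as a vertical line at its middle (in percent of the arm from the centromere side) with its length in kb as height; the dotted line marks 100 kb. The 144 lines are spread along the arm, 68 of them reach 100 kb, and the longest, at 405 kb, stands near the centromere side.

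The longest empty stretch ran from 2486713 to 2891684, over 405 kb. Its edges were nearly the same in the lists: the gap measured 405126 and 404980 bp in the replicates and 404934 bp after their combination. Beyond its inner edge only 1 cluster lay within 100 kb in each replicate, and beyond its outer edge 10. Replicate 1 also carried its single depleted region of 3R here, from 2862272 to 2864052 with a score of -0.0468, 27.6 kb from the nearest cluster. Replicate 2 and the combined list named 0 depleted regions on the arm.

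The second longest, from 12478868 to 12816385, measured 338 kb and had edges as constant, with gaps of 337604 and 337545 bp in the replicates and 337510 bp after combination. Unlike the first it had several clusters near each edge. Within 100 kb of its inner edge lay 7 and 8 in the replicates, and within 100 kb of its outer edge 9 and 11. The third stretch, from 23814489 to 24150603, was 371 kb long in replicate 1 and 336 kb in replicate 2, which placed weak clusters with scores of 0.316 and 0.299 at its edges. The fourth, from 1835092 to 2170284, was 335 kb long in each replicate and in the combined list. It precedes the longest stretch on the arm, and only 1 cluster in each replicate lay within 100 kb before it. The fifth, from 17861849 to 18181838, measured 320 kb in each replicate, and a combined cluster with a score of 0.392 lay inside it. Of the 5 longest this was the only one with a whole combined cluster inside. A region without a cluster is one in which no enrichment was called: read depth is unknown, so a low level of the mark cannot be told apart from its absence.

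Widths on 3R fell in a narrow range. The middle 50% of clusters measured 1742 to 2782 bp in replicate 1 and 1859 to 2925 bp in replicate 2, with medians of 2053 and 2139 bp. No cluster was narrower than 1302 and 1301 bp, respectively, against 1001 bp in the combined list. Clusters of 5 kb or wider numbered 24 (2.71%) in replicate 1 and 46 (4.81%) in replicate 2 and held 7.49% and 12.0% of the covered length. The median width was 2123 ± 77.1 bp on 2L and 2026 ± 37.5 bp on 3L, against 2096 ± 60.8 bp on 3R.

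Wider clusters had higher scores, but the relation had a step near 2 kb. Over all clusters the rho between width and score was 0.735 in replicate 1 and 0.755 in replicate 2. Within ranges whose edges were chosen after seeing the data, the relation differed. For clusters from 1.8 to under 2.2 kb wide, rho was 0.827 (256 clusters) and 0.865 (316 clusters). In this range the median score went from 0.411 at 1.8 to 1.9 kb to 0.724 at 2.1 to 2.2 kb in replicate 1, and from 0.374 to 0.669 in replicate 2. At 2.2 kb or wider, rho was only 0.0503 and 0.152, and under 1.8 kb it was -0.27 and -0.14. The same step was present on 2L, with rho of 0.847 and 0.846 in the range from 1.8 to 2.2 kb, and on 3L, with 0.848 and 0.850. How the region caller sets the width is not given in the sources used here, and its part in the step was not tested.

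**Figure D4:**
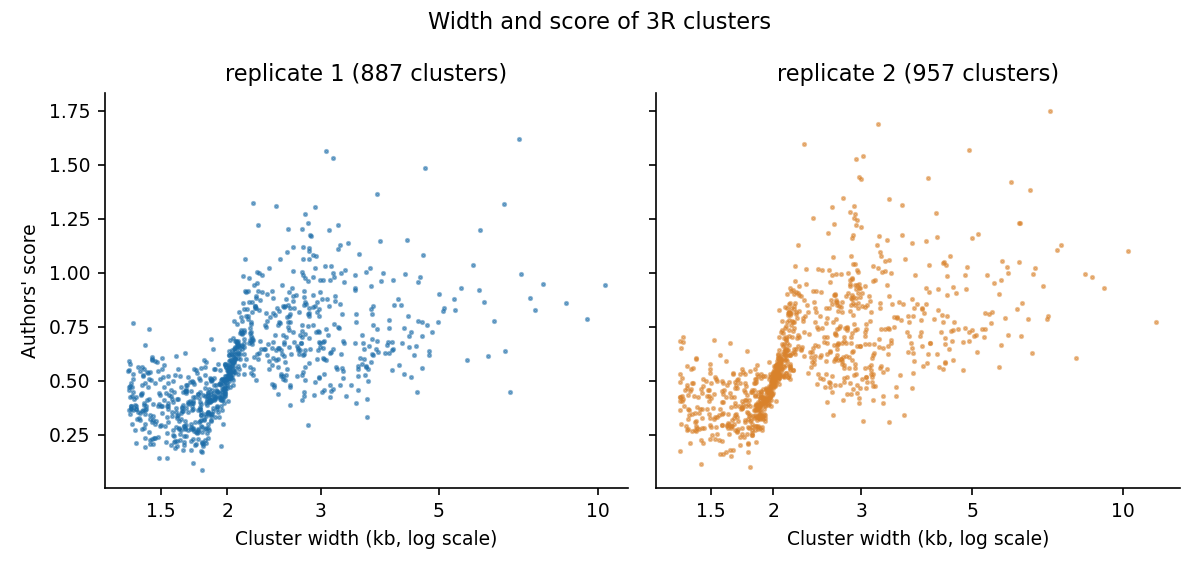
Authors' score (no unit) against cluster width (kb, log scale) for the 887 clusters of replicate 1 and the 957 of replicate 2 on arm 3R, 1 point per cluster. In both panels scores climb steeply between 1.8 and 2.2 kb, and wider clusters spread over a wide range of scores, with few of the lowest.

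The 5 widest combined clusters of 3R did not have the highest scores, and ranked between 45 and 214 by score among the 1204 combined clusters. As a class, clusters of 5 kb or wider had the highest median scores, 0.872 in replicate 1 and 0.881 in replicate 2. From 3 to under 5 kb the medians were 0.685 and 0.743. The widest of the combined list, from 12072175 to 12084139, measured 12.0 kb with a score of 0.705 and lay inside the group of 14 named above. Replicate 2 called it as a single cluster of 11.6 kb, while replicate 1 split it into 4, of which the widest was 4.01 kb. The next, from 5902097 to 5912471 in the densest bin, was a single cluster in each replicate, at 10.3 kb and scores of 0.946 and 1.10. The third, from 5770734 to 5780701 in the same bin, was 9.51 kb in replicate 1 and split into 2 clusters in replicate 2. The fourth, from 16777968 to 16787342, measured 7.61 and 9.15 kb. The fifth, from 23741022 to 23749790, was almost the same in the replicates at 8.68 and 8.69 kb, with scores of 0.861 and 0.980. It had no combined neighbour for 207 kb on its inner side, and 878 bp beyond its outer side the next one followed.

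The clusters with the highest scores differed in width. Among clusters found in both replicates, the highest was 1 of 7.22 kb from 1457219 to 1464434, which scored 1.62 and 1.75 in the replicates and 1.68 after combination. It was the top score of 3R in each replicate list and lay in a group of 11 and 12 clusters, from 1412890 to 1495955 in replicate 1. The second, from 19597040 to 19600336, was 3.30 kb wide with scores of 1.56 and 1.69. The third, from 4475258 to 4480174, scored 1.49 and 1.57 and had no combined neighbour for 84.2 kb on its inner side. The fourth, from 7050811 to 7053990, scored 1.53 and 1.54. The fifth, from 9783643 to 9785952, was only 2.31 kb wide and scored 1.32 and 1.60, with 119 kb and 22.2 kb free on either side in the combined list. High scores thus occurred both within large groups and at isolated places. Scores of 1 or more were reached by 50 clusters of replicate 1 and 75 of replicate 2.

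The replicates agreed on position closely. Of the covered length, 1.96 Mb was common to both lists out of 2.63 Mb covered in either, a Jaccard index of 0.745, against 0.734 on 2L and 0.714 on 3L. By number, 824 clusters of replicate 1 (92.9%) overlapped replicate 2 and 802 of replicate 2 (83.8%) overlapped replicate 1. With an overlap of 50% of both clusters required, the shares were 86.1% and 79.8%. Clusters with a single partner in each list numbered 743. Their starts differed by a median of 73 bp and their ends by 83 bp, and in 61.2% of them both edges lay within 200 bp. Splits were uncommon: 15 clusters of replicate 1 met more than 1 cluster of replicate 2, and 32 the other way round. In 75.4% of the 743 the cluster was wider in replicate 2, by a median of 107 bp over all of them.

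**Figure D5:**
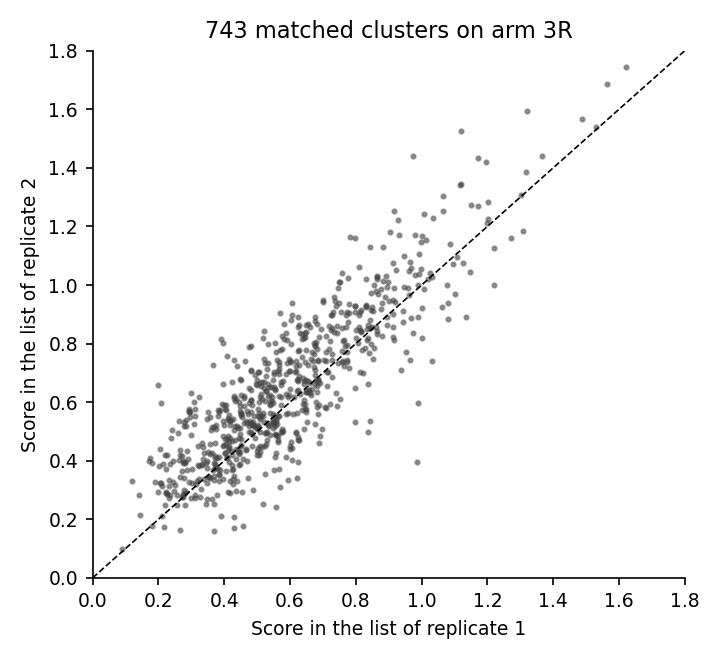
Score in the list of replicate 2 against score in the list of replicate 1 (no unit) for the 743 clusters of arm 3R with a single partner in each list; the dashed line marks equal values. Most points follow the line, with a Pearson's r of 0.866, and 67.7% lie above it.

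Scores of these 743 pairs had a Pearson's r of 0.866 and a Spearman's rho of 0.836. Their widths had a rho of 0.814. These are descriptions across clusters of 2 libraries, which share the sequence of the arm. Of the 100 clusters with the highest score in a list, all overlapped a cluster of the other list, and 73 overlapped one of its own 100 highest.

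Clusters found in a single replicate were narrower and, by their medians, lower in score than shared ones. Replicate 1 had 63 clusters of its own and replicate 2 had 155. Their median widths were 1464 and 1676 bp, against 2095 and 2300 bp for shared clusters, and their median scores 0.470 and 0.428, against 0.563 and 0.618. None of them scored above 0.767. Among the 25% narrowest clusters, 78.8% in replicate 1 and 52.9% in replicate 2 were shared, and among the 25% widest 99.5% and 98.8%. By score the lists differed: from the lowest to the highest 25%, replicate 1 shared 90.5%, 87.4%, 94.1% and 99.5% of its clusters, and replicate 2 shared 66.5%, 75.7%, 92.9% and 100%. The lowest scores were thus the least shared in replicate 2 and not in replicate 1. Of the unshared clusters, 35 of the 63 (55.6%) and 73 of the 155 (47.1%) were less than 5 kb from a cluster of the other replicate. That distance is to the nearer cluster of both sides. Single gaps between neighbours within a list were under 5 kb in 42.0% and 43.2%. A gap counts 1 side only, so these shares are no baseline for the unshared clusters, and closeness was not tested. The unshared clusters were found along the whole arm, with 23, 16 and 24 of replicate 1 and 54, 44 and 57 of replicate 2 in the inner, middle and outer segments.

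The combined list also covered 63 of the 63 unshared clusters of replicate 1 and 152 of the 155 of replicate 2, and it held clusters seen in neither. On 3R, 773 of its 1204 clusters (64.2%) had a counterpart in both replicates, 208 (17.3%) in 1 of them and 223 (18.5%) in neither. The first kind made up 77.7% of the combined covered length, with a median width of 2727 bp, and the last 9.56%, with a median of 1233 bp. Their median scores were 0.529 and 0.344. The shares found in neither were 20.0% on 2L and 19.0% on 3L. Of the 223, 101 (45.3%) lay less than 5 kb from a combined cluster found in both replicates.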

How the data were processed

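The submitters' processing notes name Bowtie 0.12.7. The file headers name FlyBase release 5, and positions count from 1. The score of each region was set and deposited by the authors. For its scale, the peak calling, the cut-offs and the merging of replicates, the method is not given in the sources used here. Read numbers are not in the lists, so depth is unknown and no counting interval is given.

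From the 3 lists, enriched regions on 3R were kept as deposited. A cluster was counted in the bin or segment that holds its midpoint, and overlap of 1 bp counted as shared. Values are given per replicate or as mean ± SD (n = 2). No test was run: a single group of samples has lists, and arms were compared by their values in each replicate only. Named regions were the 5 widest and 5 highest-scoring combined clusters found in both replicates, the 5 largest groups of the combined list, the 5 longest empty stretches, the 3 densest and 3 sparsest bins, and the outermost clusters; the largest group of replicate 1, its window and the empty stretch after it were added after seeing their values. Regions and measures were chosen with earlier results of these data known. The procedures were checked on simulated layouts (13 of 13 known values recovered). Software was matplotlib 3.10.9, scipy 1.17.1, pandas 2.3.3, numpy 2.4.6 and Python 3.11.15.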

Additional observations from a re-analysis of the deposited data

How the results depend on the processing

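Of 59 alternatives, 31 left their result within the spread between replicates or, for counts, within 1.5 times, and 28 moved it. With no test run, none could gain or lose a call. The tally does not measure robustness, because some of its labels were fixed in advance. For measures other than counts, leaving out 1 of 2 replicates always stays within their SD. The Jaccard index has no SD here, so any change moved it. Keeping 50% of the clusters always moves their number. Restricting to the 50% of clusters with the highest score gave 461.5 clusters (922 in full), a covered share of 5.06% (8.22%), a coefficient of variation over bins of 0.457 (0.359), an outer to inner density ratio of 0.882 (0.853), a median gap of 19460 bp (7043 bp), 34.9% of clusters in groups (60.8%), a median width of 2713 bp (2096 bp), a median score of 0.747 (0.560), a Jaccard index of 0.652 (0.745) and 80.5% shared (88.4%). Fewer clusters by construction lengthen the gaps. The median score rises by construction too, because the choice was made by score. Width was related to score over all clusters, so the wider median is not independent of that choice. The combined list gave a covered share of 11.0%, a coefficient of 0.338, a ratio of 0.912, a median gap of 5415 bp, 67.4% in groups and a median score of 0.414. Merging clusters under 500 bp apart gave a coefficient of 0.346, a median gap of 8139 bp and 56.0% in groups. The coefficient was 0.491 in bins of 500 kb and 0.260 in bins of 2 Mb. In the replicates the mean density ratio was 0.941 for outer over inner 50% of the arm and 0.893 without the first and last Mb. Without the densest bin (chosen after seeing the data) it was 0.938, so it was below equality in each. In the combined list the order of the inner and outer 50% was reversed, with 42.5 and 43.8 clusters per Mb, respectively. Midpoints were a median of 9572 bp apart. Groups linked under 5 kb held 40.9% and under 20 kb 78.1%. Empty stretches numbered 144 at 50 kb or more. Leaving out a replicate gave 887 to 957 clusters, 7.62 to 8.83% covered, ratios of 0.840 to 0.865 and 69 to 74 empty stretches. No paired analysis was possible because no input list was used and no test was run. Unknown depth limits what a missing cluster means.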

Other observations

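The highest score of 3R in the combined list belonged to a cluster that neither replicate list holds. It ran from 26144158 to 26145158, at 1001 bp the narrowest width of that list on the arm, with a score of 2.92, against 1.68 for the next highest on 3R. The nearest cluster lay 46.4 kb away in replicate 1 and 8.22 kb away in replicate 2. The same score was given to 4 clusters of the whole combined list, 1 each on 3L, 3R, 4 and U, and all 4 were 1001 bp wide. The second highest score among 3R clusters found in neither replicate was 1.16.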
